A study of Mus musculus with 8 samples.

Results

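The clustered histone genes make the bulk of the histone proteins that package newly copied DNA. They are described here in mouse nephron progenitors, from which the kidney builds its nephrons. Members were all rows of the count table whose symbol begins with Hist1h, Hist2h, Hist3h or Hist4h, which gave 69 of 24539 genes. By the type in the symbol, 6 were genes of the linker histone H1, 19 of H2A, 19 of H2B, 12 of H3 and 13 of H4. Polyadenylated RNA of sorted cells was sequenced in 8 libraries, 2 in each of 4 genotype groups, at E18.5. All embryos, controls included, carried Six2GFPcre, a transgene that makes a fusion of GFP and Cre recombinase in nephron progenitors and by whose fluorescence the cells were sorted. Cre can act only in cells that make it, so cells that never made it, also any of these sorted by mistake, keep their conditional alleles. The KO group was Smo c/c; Six2GFPcre, with both copies of Smo conditional. The Het group was Smo c/+; Six2GFPcre, with a single conditional copy. The WT group was Smo +/+; Six2GFPcre. The SmoM2 group was Rosa26 SmoM2/+; Smo +/+; Six2GFPcre, in which Cre switches on SmoM2, an active form of Smo. Smo passes on Hedgehog signals at the membrane, and the series varied its dose.

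Most clustered histone genes are transcribed when DNA is replicated, because each new DNA copy needs new H2A, H2B, H3 and H4, with H1 binding between nucleosomes. Their mRNAs normally have no poly(A) tail: they end just after a short stem-loop, which SLBP binds and U7 snRNP helps to cut. A few cluster genes can also make longer, polyadenylated mRNAs, mainly in cells that have stopped dividing. Poly(A) selection, as used here, keeps the polyadenylated forms and loses most of the tailless ones, so the values below are not the total histone mRNA of these cells.

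Smo checks the labels. It stood at 13.1 and 11.1 CPM (the gene's count scaled to the size of its library) in the KO-labelled libraries and at 14.4 and 23.9 in the Het-labelled ones. Both WT-labelled libraries were far higher, at 363 and 375 CPM, and both SmoM2-labelled ones higher again, at 605 and 629 CPM. The Het-labelled libraries thus had a Smo level near that of the KO-labelled ones, which goes against the label of a single conditional copy, and all libraries are named by their labels. The listed counts ranged from 4422305 to 10305398 per library and were lowest in both KO-labelled libraries. All 15 nephron progenitor markers checked passed the filter on low counts, with a summed level of 4852 to 7257 CPM. The sexes of the embryos were not balanced. Both KO-labelled libraries had counts of Y-linked genes (620 and 568) and at most 2 of Xist, and both Het-labelled libraries had the opposite pattern. In the WT and SmoM2 groups replicate 1 had the male and replicate 2 the female pattern. The labels do not say whether replicates came from separate embryos, so p-values measure the spread between these libraries.

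Where the members lie and how they end was read from the GENCODE M21 annotation of GRCm38, the assembly that mm10 names. The Hist1 genes form a cluster on chromosome 13, where 54 of them lie between 21715763 and 23934851. The 10 Hist2 genes lie on chromosome 3 between 96219865 and 96270132, the 3 Hist3 genes on chromosome 11 between 58948920 and 58956830, and the lone Hist4 gene on chromosome 6. Hist1h2al stands apart, 27.3 Mb from the chromosome 13 cluster at chr13:51202727-51203065. Of the members the results turn on, Hist3h2a lies at chr11:58954685-58956830, Hist3h2ba at chr11:58948920-58949533, Hist2h2be at chr3:96221119-96223738, Hist1h1c at chr13:23738808-23740367, Hist1h4i at chr13:22040636-22041362 and Hist1h2ag at chr13:22042460-22042944, all annotated as protein-coding genes. For Hist1h2al, GENCODE gives a processed pseudogene, and RefSeq lists a transcribed pseudogene, H2af-ps2, there, whose span of 2983 bases equals the length in the count table. For each member 1 transcript was searched, the longest protein-coding one where there was any. A fixed 16-base stem-loop pattern was found in that of 45 members (65.2%), against 0.148% of 58797 protein-coding transcripts. A poly(A) hexamer, AATAAA or ATTAAA, stood in the last 40 bases of the annotated transcript in 17 members (24.6%), against 48.7% of those transcripts. Some annotated transcripts are shorter than the length in the count table, such as Hist1h4k with 312 against 409 bases and Hist1h2bn with 381 against 431. A stem-loop or hexamer beyond their annotated end could not be found. The stem-loops below are those of leading members of each type and of members called in a comparison, with 7 bases on each side and the stem-loop in capitals.
Hist3h2a stem-loop: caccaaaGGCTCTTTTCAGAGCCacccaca
Hist3h2ba stem-loop: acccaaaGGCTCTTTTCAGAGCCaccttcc
Hist1h1c stem-loop: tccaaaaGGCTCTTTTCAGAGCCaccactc
Hist1h2ag stem-loop: caacaaaGGCTCTTTTCAGAGCCacctaac
Hist1h3c stem-loop: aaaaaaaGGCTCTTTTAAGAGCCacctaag
Hist1h4d stem-loop: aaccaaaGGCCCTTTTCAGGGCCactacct
Hist1h4i stem-loop: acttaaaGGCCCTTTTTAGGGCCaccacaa
The first 4 carry the same letters inside the loop and stem, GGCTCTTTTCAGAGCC, which 25 members of H1, H2A, H2B and H3 share. The commonest H4 form, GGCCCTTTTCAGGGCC, was found in 7 members, all of them H4 genes. Hist1h4i has a form found in 2 H4 members, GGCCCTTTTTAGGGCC. Hist2h2be and Hist1h2bc, both polyadenylated cluster genes in textbook accounts, had no match in the transcript searched. That of Hist1h2bc has 1156 bases, against 774 in the count table. A stem-loop in another transcript of these genes would be missed. Beyond the stem-loop, the annotated transcript of Hist3h2a runs on for 1643 bases, that of Hist1h1c for 840, that of Hist1h4i for 330 and that of Hist3h2ba for 169, while that of Hist1h2ag stops after 23. The last 30 bases of 4 annotated transcripts, those of Hist2h2be and of 3 members with an extension, show the hexamer in capitals.
Hist3h2ba 3′ end: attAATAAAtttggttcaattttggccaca
Hist1h1c 3′ end: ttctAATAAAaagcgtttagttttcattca
Hist1h4i 3′ end: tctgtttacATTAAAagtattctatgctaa
Hist2h2be 3′ end: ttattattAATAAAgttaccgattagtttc
Hist3h2a has a hexamer in its last 40 bases as well. The counted gene models were often shorter than these transcripts. Some were longer than the RefSeq span, as for Hist1h2ao (1104 against 552 bases) and Hist2h2aa1 (1112 against 556), which lowers their RPKM. In 45 of 69 members the table's length equalled the span of the RefSeq entry, and in 14 the GENCODE transcript was over 1.5 times as long as the table's length. For Hist3h2a the lengths are 508 and 2146 bases, so reads from the extension would not be counted in a model of the table's length.

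Promoters of the members, 250 bases before the RefSeq start on GRCm38.p6, were matched for 61 members with 62 windows and searched on both strands for 3 motifs. CCAAT, the box bound by NF-Y, was in 82.26% of member windows and 33.85% of 32851 promoters. All windows of H1, H2A and H2B genes held it, and 25% of those of H4 genes did. The octamer ATTTGCAT, bound by Oct1, was in 22.58% of member windows and 1.60% of all promoters. It was found in 7 of 17 windows of H2A genes and in 7 of 17 of H2B genes. Windows of some H2A and H2B genes overlap, as those of Hist1h2ae and Hist1h2bg do. A motif in the shared stretch is counted for both genes, so these shares are not of separate windows. GGTCCG, a short element of H4 promoters, was in 9 of 12 windows of H4 genes and 6.72% of all promoters. The promoters of the 2 most abundant members and of 2 members that were called show these motifs in capitals, on either strand.
Hist3h2a promoter, chr11:58954435-58954684, plus strand: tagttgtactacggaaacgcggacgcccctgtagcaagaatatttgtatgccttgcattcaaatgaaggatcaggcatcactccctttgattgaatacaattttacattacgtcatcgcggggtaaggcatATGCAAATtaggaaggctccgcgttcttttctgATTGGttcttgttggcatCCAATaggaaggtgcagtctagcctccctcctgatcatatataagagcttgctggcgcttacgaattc
Hist3h2ba promoter, chr11:58948661-58948910, plus strand: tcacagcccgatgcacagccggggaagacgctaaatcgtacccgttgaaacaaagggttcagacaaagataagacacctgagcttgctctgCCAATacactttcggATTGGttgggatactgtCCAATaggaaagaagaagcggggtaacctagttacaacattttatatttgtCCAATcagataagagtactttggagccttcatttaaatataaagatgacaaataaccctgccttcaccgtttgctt
Hist1h2ag promoter, chr13:22042950-22043199, minus strand: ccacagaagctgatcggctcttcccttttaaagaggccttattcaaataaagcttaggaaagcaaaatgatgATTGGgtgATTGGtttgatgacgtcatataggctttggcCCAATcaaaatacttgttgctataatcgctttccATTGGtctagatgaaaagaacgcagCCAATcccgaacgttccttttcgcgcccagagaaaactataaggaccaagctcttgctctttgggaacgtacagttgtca
Hist1h4i promoter, chr13:22041363-22041612, minus strand: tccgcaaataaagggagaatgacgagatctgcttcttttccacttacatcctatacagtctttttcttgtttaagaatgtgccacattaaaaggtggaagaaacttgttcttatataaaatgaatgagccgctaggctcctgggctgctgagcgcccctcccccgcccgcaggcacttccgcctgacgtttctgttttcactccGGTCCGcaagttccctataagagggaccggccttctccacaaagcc
The Hist1h2ag window holds nearly the same stretch as that of Hist1h2bj, read from the other strand, since the pair is transcribed in opposite directions from it. These matches describe letters and do not show binding.

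**Figure D1:**
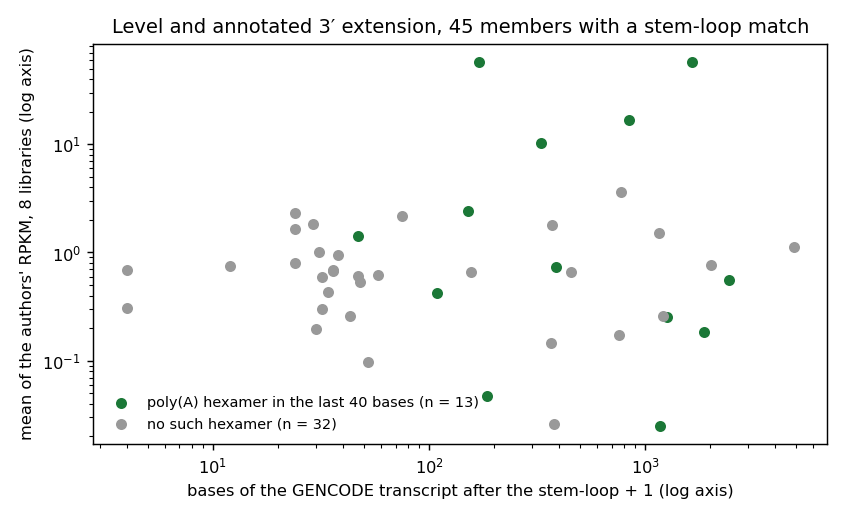
Mean RPKM over the 8 libraries (vertical, log axis) against the bases of the GENCODE transcript that follow the stem-loop, plus 1 (horizontal, log axis), for the 45 members with a stem-loop match. Each point is a member, and green points have a poly(A) hexamer in the last 40 bases; the 4 points above 10 RPKM are green, yet other green points lie below 1 RPKM.

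Few members carried most of the signal. The members summed to 8699 counts over the 8 libraries, and 5 genes held 74.4% of them: Hist3h2a with 23.9%, Hist3h2ba with 21.8%, Hist1h1c with 11.4%, Hist2h2be with 11.1% and Hist1h2bc with 6.2%. Between libraries the share of those 5 ranged from 59.6% to 84.9%. At the other end, 19 members had at most 3 counts in every library. The testis histones Hist1h2ba and Hist1h2aa had no count at all, and the testis linker histone Hist1h1t had at most 1. Per length, the authors' RPKM (reads per kilobase of gene, scaled by library total) averaged 57.3 for Hist3h2a, 56.9 for Hist3h2ba, 16.8 for Hist1h1c, 10.4 for Hist1h4i, 9.76 for Hist1h2bc and 4.90 for Hist2h2be. The first 4 of these 6 had both a stem-loop and a hexamer. A hexamer alone did not mark high members, since the median of the mean RPKM was 0.552 over the 17 members with one and 0.637 over the 52 without. For scale, the replacement histone H3f3b, which is made throughout the cell cycle from a polyadenylated mRNA, stood between 240 and 584 RPKM, and H2afz between 203 and 452.

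**Figure D2:**
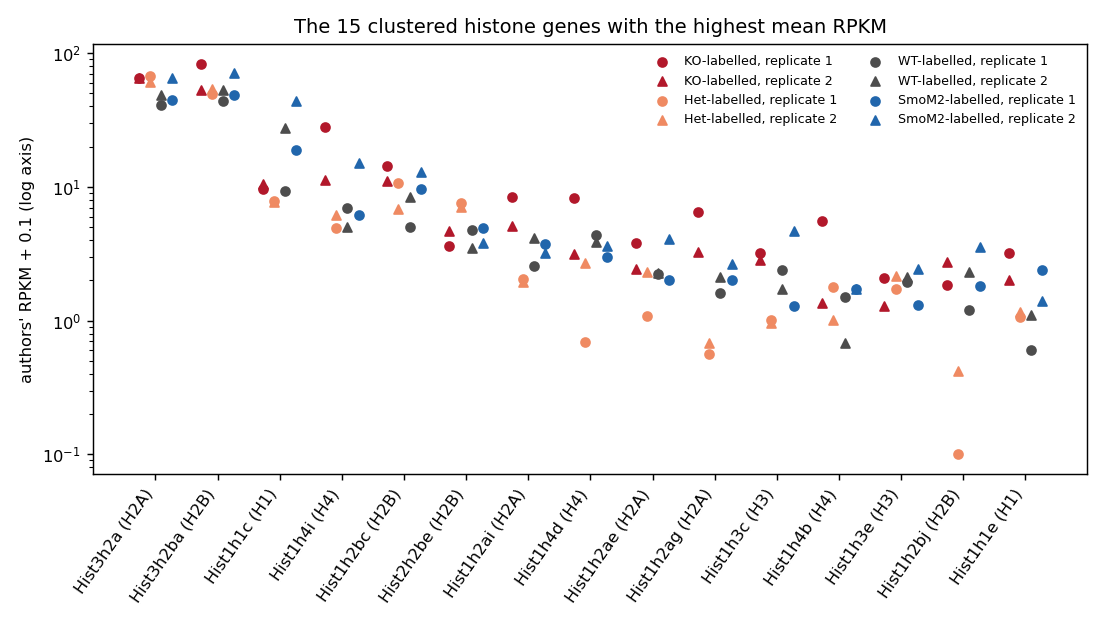
The authors' RPKM plus 0.1 (vertical, log axis) of the 15 members with the highest mean, by library; colours give the label and shapes the replicate. Hist3h2a and Hist3h2ba lie highest in every library, and for Hist1h2ai, Hist1h2ag and Hist1h2bj the Het-labelled libraries lie lowest.

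The H2A and H2B genes of the Hist3 cluster had the highest CPM of all members in each of the 8 libraries. Hist3h2a, which encodes an H2A, stood at 39.4 and 38.5 CPM in the KO-labelled, 41.8 and 38.4 in the Het-labelled, 24.3 and 31.3 in the WT-labelled and 28.3 and 41.7 in the SmoM2-labelled libraries. Hist3h2ba, which encodes an H2B, stood at 45.6 and 28.3, 28.1 and 30.9, 23.7 and 30.7, and 28.1 and 41.0 CPM in the same order. Both KO- and both Het-labelled libraries were above both WT-labelled ones for Hist3h2a, but not for Hist3h2ba, and no comparison of either gene passed the threshold of an adjusted p of 0.05 (edgeR's quasi-likelihood test with Benjamini-Hochberg adjustment over all genes). The nearest was Hist3h2a in Het against WT, at a log2 difference of 0.53 ± 0.20 (SE; adjusted p = 0.0664). It was called there without a filter on low counts, with a replicate block, with the trend over gene length removed, with only the 2 groups in the fit and without either SmoM2-labelled library. Among H2B genes, Hist2h2be stood at 11.1 and 14.2, 24.6 and 23.3, 14.7 and 11.3, and 16.2 and 12.5 CPM. The Het-labelled libraries were above all others. Hist1h2bc stood at 13.1 and 9.80, 10.2 and 6.45, 4.47 and 8.06, and 9.20 and 12.5 CPM. Its KO-labelled libraries were above both WT-labelled ones, with no call. The other genes of the polyadenylated kind were low, Hist1h2be at 0.218 to 1.04 and Hist2h2aa1 at 0.510 to 1.96 CPM. Hist1h2ai, an H2A gene, stood at 4.43 and 2.61, 1.07 and 1.02, 1.31 and 2.29, and 2.04 and 1.73 CPM, highest in the KO-labelled libraries.

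Hist1h1c, a linker histone gene, varied widely between libraries of 1 label. It stood at 8.19 and 8.71 CPM in the KO-labelled, 6.95 and 6.79 in the Het-labelled, 7.83 and 25.1 in the WT-labelled and 17.1 and 39.9 in the SmoM2-labelled libraries. Both KO- and both Het-labelled libraries were low, and so was WT replicate 1 beside WT replicate 2. The 2 higher libraries of the WT and SmoM2 groups were the ones with the female pattern, but so were the low Het-labelled libraries, and the part of sex was not tested. Other H1 genes were low: Hist1h1e stood at 0.466 to 2.88 CPM and Hist1h1d at 0.134 to 2.44 CPM over the 8 libraries. The H3 genes were also low, with Hist1h3c at 0.510 to 2.77, Hist1h3e at 0.653 to 1.39 and Hist1h3a at 0.401 to 1.16 CPM. Of the H4 genes, Hist1h4i stood at 13.3 and 5.22, 2.41 and 3.06, 3.26 and 2.50, and 3.07 and 7.63 CPM. Hist1h4d ranged from 0.267 to 3.54 and Hist1h4b from 0.327 to 2.88 CPM, each with its highest value in KO replicate 1.

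Only 18 members passed the filter on low counts (4 H1, 5 H2A, 5 H2B, 1 H3 and 3 H4 genes), and they held 81.9% to 91.2% of the member counts of a library. The other 51 were not tested singly. Comparisons with WT share the WT-labelled libraries. In KO against WT, 1 of the 18 was called, Hist1h4i, and it was higher in KO. Over all 13459 genes tested, 23.0% were called in this comparison, 11.6% higher and 11.4% lower, so calls were no more frequent among the tested members. Hist1h4i rose by a log2 change of 1.67 ± 0.51 (SE; adjusted p = 0.0355), from counts of 35 and 23 in the WT-labelled to 60 and 24 in the KO-labelled libraries, which are shallower. KO replicate 1 carried most of that difference: without it the log2 change was 0.85 (adjusted p = 0.372). The call was also lost without either WT library (adjusted p = 0.0748 and 0.128) and after the trend over gene length was removed from each library (log2 change 1.15, adjusted p = 0.111). The 18 had a median log2 difference of 0.50, beside 0.03 over all genes. Libraries of the 2 labels did not overlap in 8 of the 18, beside 62% of all genes. These medians and counts describe the tested members only, since a member could pass the filter through the group where it was high. Without WT replicate 1 the member called was Hist1h1c, and without WT replicate 2 it was Hist1h2bc. Without KO replicate 2, or without any single Het- or SmoM2-labelled library, more members were tested (25 to 31) and more were called.

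In Het against WT, 2 of 18 members were called, while 25.3% of all genes were, 13.1% higher and 12.2% lower. Hist2h2be was higher, by 0.87 ± 0.22 (log2, SE; adjusted p = 0.0147), a call lost when either Het-labelled library or WT replicate 2 was left out (adjusted p = 0.0931, 0.0647 and 0.0938). Its transcript shares no 50-base stretch with another member. Hist1h2al was lower. It had no count in either Het-labelled library, against 20 and 65 in the WT-labelled, 15 and 11 in the KO-labelled and 56 and 12 in the SmoM2-labelled libraries. Taken against a floor of 3 counts in each library it was at least 9.82-fold lower in Het (adjusted p = 0.00840). In its annotated transcript of 339 bases, 67.6% of the 50-base stretches also occur in another member. The rest of the 2983 bases counted for it was not compared. Its row may count a pseudogene transcript, as described above. The tested members Hist1h1b, Hist1h2ag, Hist1h2bj and Hist2h2bb were also at or under 3 counts in both Het-labelled libraries and passed the filter through the other groups. The median over the 18 was a log2 difference of -0.61, or -0.50 with those genes at the bound of the floor, beside -0.02 over all genes. Libraries did not overlap in 11 of the 18, beside 66.9% of all genes.

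In SmoM2 against WT none of the 18 members was called by edgeR, and 2 had an unadjusted p under 0.05, Hist1h1e and Hist1h2bc. DESeq2 also called 0. Without a filter on low counts 1 of 67 members was called, Hist1h1c, beside 356 of 18070 genes. With the filter few genes of any kind were called in this comparison, 0.223% of those tested, 0.156% higher and 0.0669% lower. The log2 change of Hist1h1c was 0.80 ± 0.45 (SE; adjusted p = 0.775) and that of Hist1h4i was 0.87 ± 0.50 (SE; adjusted p = 0.780). Within both labels the library with the female pattern was higher than the one with the male pattern, for Hist1h1c as given above and for the sum of all members (142 against 102 CPM in WT and 196 against 138 in SmoM2). Set against the WT-labelled library of the same pattern, each SmoM2-labelled library was higher in both measures, with 1 library a side and no test. With a replicate block, which in these 2 groups follows the sex pattern, 0 members were called and the difference in the sum was 0.45 (adjusted p = 0.572). The median of the 18 was 0.42, beside 0.00299 over all genes, and libraries did not overlap in 3 of them, beside 35.8% of all genes.

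KO and Het, the 2 labels with low Smo, differed in 3 of 18 members, beside 9.43% of all genes, 4.33% higher and 5.10% lower. Hist2h2be was lower in KO, by a log2 change of -0.92 ± 0.23 (SE; adjusted p = 0.0334). Hist1h2ag, an H2A gene, was higher in KO. It had 16 and 8 counts in the KO-labelled and 2 and 2 in the Het-labelled libraries (adjusted p = 0.0245). Against the floor of 3 counts in each Het-labelled library its mean was 5.80-fold higher. Since counts were seen in both Het-labelled libraries, that fold is not a lower limit. Hist1h2ag shares 78.9% of its 50-base stretches with other members, so the gene of origin is uncertain. Hist1h2bj, on the other side of the shared promoter printed above, had 4 and 6 counts in the KO-labelled and 0 and 1 in the Het-labelled libraries, with an adjusted p of 0.0794. Hist1h2al was at least 6.28-fold higher in KO (adjusted p = 0.0400). All 3 calls were lost when KO replicate 1, Het replicate 1 or Het replicate 2 was left out, and without KO replicate 2 those of Hist1h2al (adjusted p = 0.0932) and Hist2h2be (0.0629) were lost. Those of Hist1h2ag (0.0526) and Hist1h2al (0.0609) were also lost with the length trend removed, and that of Hist2h2be with library totals implied by RPKM (0.0507). DESeq2 called Hist1h2al and Hist2h2be, with Hist1h4i, and gave Hist1h2ag no adjusted p. The KO-labelled libraries had the male and the Het-labelled the female pattern, so label and sex cannot be told apart here. The median of the 18 was 1.43, or 1.25 with bounds, beside 0.02 over all genes. Libraries did not overlap in 12 of them, beside 56.9% of all genes. In a test over all 4 labels, 5 of 18 members were called, beside 41.0% of all genes: Hist2h2be (adjusted p = 0.0157), Hist1h1c (0.0194), Hist1h2al (0.0200), Hist1h2ag (0.0247) and Hist1h4i (0.0425). Without KO replicate 1 those of Hist1h1c (0.0547), Hist1h2ag and Hist1h4i were lost, and without either Het-labelled library those of all but Hist1h1c were lost. Without SmoM2 replicate 2 Hist1h1c was at 0.0792, and without WT replicate 2 Hist1h4i was at 0.0609. With the length trend removed Hist1h2ag (0.0504) and Hist1h4i (0.116) were lost, and with DESeq2 Hist1h2ag (0.0653).

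**Figure D3:**
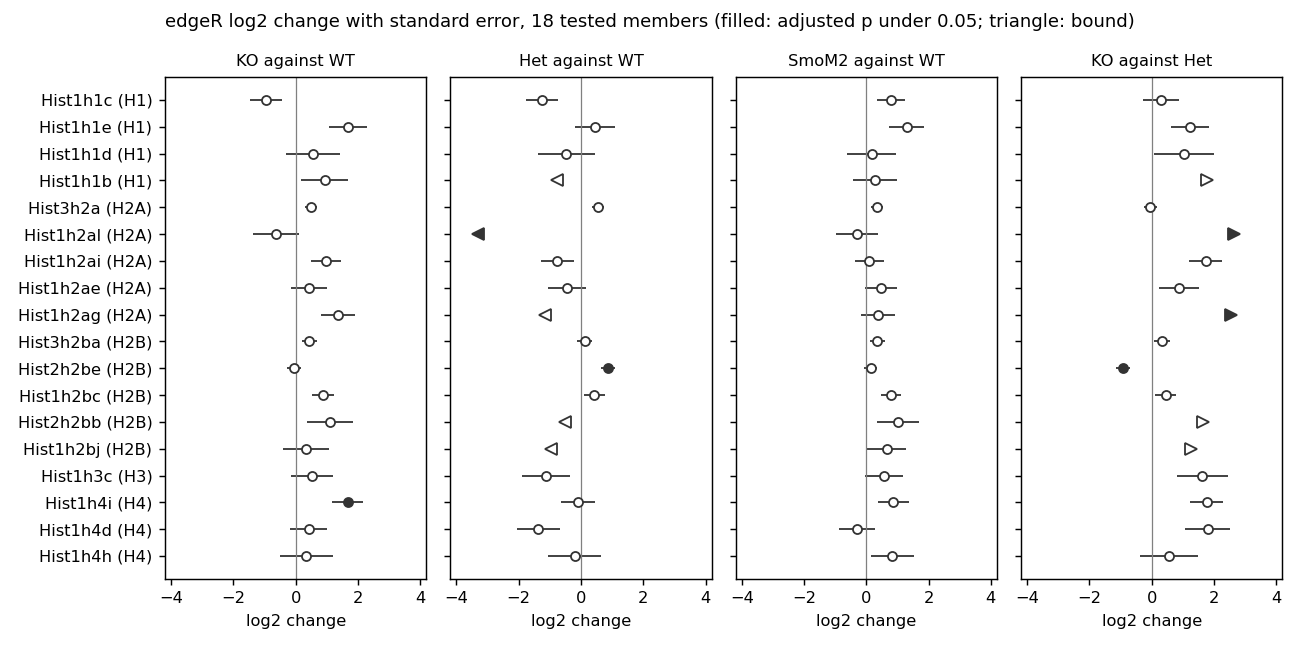
Log2 change from edgeR (horizontal) with its standard error for the 18 tested members, ordered by type, in 4 comparisons. Filled symbols passed an adjusted p of 0.05; triangles give the bound for members at or under 3 counts in both Het-labelled libraries. In KO against Het most members lie right of 0, while Hist2h2be lies at -0.92.

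Because 31 members share at least 50% of their 50-base stretches with another member, reads can be split between copies or counted for each. The counts were therefore also summed by type. The count rows of Hist1h2bq and Hist1h2br are identical, and so are those of Hist2h3c1 and Hist2h3c2. Nearly identical are those of Hist1h2ao and Hist1h2ap (33 and 32 counts in total) and of Hist2h2aa1 and Hist2h2aa2 (58 and 62). The sums may thus hold some reads again for each copy. The H2A sum was 70.2 and 53.6 CPM in the KO-labelled, 48.8 and 43.8 in the Het-labelled, 32.9 and 47.4 in the WT-labelled and 43.0 and 57.0 in the SmoM2-labelled libraries. The H2B sum was 78.2 and 57.3, 65.1 and 63.9, 47.1 and 55.3, and 60.3 and 73.4 CPM. These 2 sums, led by the Hist3 genes, made up most of the signal, and the KO-labelled libraries lay above both WT-labelled ones. The H4 sum was 25.2 and 8.71, 6.82 and 8.15, 6.90 and 7.30, and 8.90 and 14.9 CPM. KO replicate 1 stood well above every other library here. The H1 sum followed Hist1h1c, at 16.8 and 12.0, 8.29 and 9.68, 10.3 and 28.2, and 22.6 and 43.6 CPM. The H3 sum was lowest, between 2.41 and 7.05 CPM.

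In the main edgeR fit no type sum passed the threshold in a pairwise comparison. With the 5 sums in place of the members, 23.1% of rows were called in KO against WT, 25.4% in Het against WT, 0.231% in SmoM2 against WT, 10.1% in KO against Het and 40.8% over all 4 labels. In KO against WT the log2 difference was 0.60 ± 0.20 for H2A (SE; adjusted p = 0.0507) and 1.22 ± 0.41 for H4 (adjusted p = 0.0503). The H4 difference rested on KO replicate 1 and was 0.29 without it, and 1.82 without KO replicate 2 (adjusted p = 0.00734). The H2A difference was 0.38 without WT replicate 1 and 0.88 without WT replicate 2 (adjusted p = 0.0220). Both lie at the threshold and moved either way. DESeq2 called both (adjusted p = 0.0448 and 0.0248), and the H2A sum was called without Hist1h2al (0.70, adjusted p = 0.0309). Both were also called with at least 10 counts in every library, with library totals implied by RPKM and with only the 2 groups in the fit. Without a filter on low counts both passed (adjusted p = 0.0022 and 0.00013). H4 in KO against Het (1.17, adjusted p = 0.0011) and H1 in Het against WT (-1.10, 7.1e-05) and SmoM2 against WT (0.80, 0.015) then passed as well. Without Hist1h2ap, Hist1h2br and Hist2h2aa2, near-identical copies of other members, H2A was at 0.56 (adjusted p = 0.0634) and H4 at 1.22 (adjusted p = 0.0503). With the length trend removed H2A was at 0.18 (adjusted p = 0.503) and H4 at 0.77 (adjusted p = 0.171). H1 was at -1.08 ± 0.44 in Het against WT (adjusted p = 0.0919). That difference hung on the WT-labelled libraries, being -1.66 without replicate 1 (adjusted p = 0.00849) and -0.22 without replicate 2. In SmoM2 against WT H1 was at 0.79 ± 0.40 (adjusted p = 0.712), from 0.23 without WT replicate 1 to 1.70 without WT replicate 2. Over all 4 labels, the H1 sum was called (adjusted p = 0.0205), and this call was lost without SmoM2 replicate 2 (0.101), without Het replicate 1 (0.0756) or 2 (0.0503) and with DESeq2 (0.0582). The sum of all members was 197 and 136, 131 and 129, 102 and 142, and 138 and 196 CPM. It passed in no comparison, with log2 differences of 0.45 in KO against WT (adjusted p = 0.146), 0.09 in Het against WT (0.777), 0.45 in SmoM2 against WT (0.663) and 0.36 in KO against Het (0.308). In KO against WT the difference of 0.45 fell to -0.001 once the trend over gene length was removed.

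**Figure D4:**
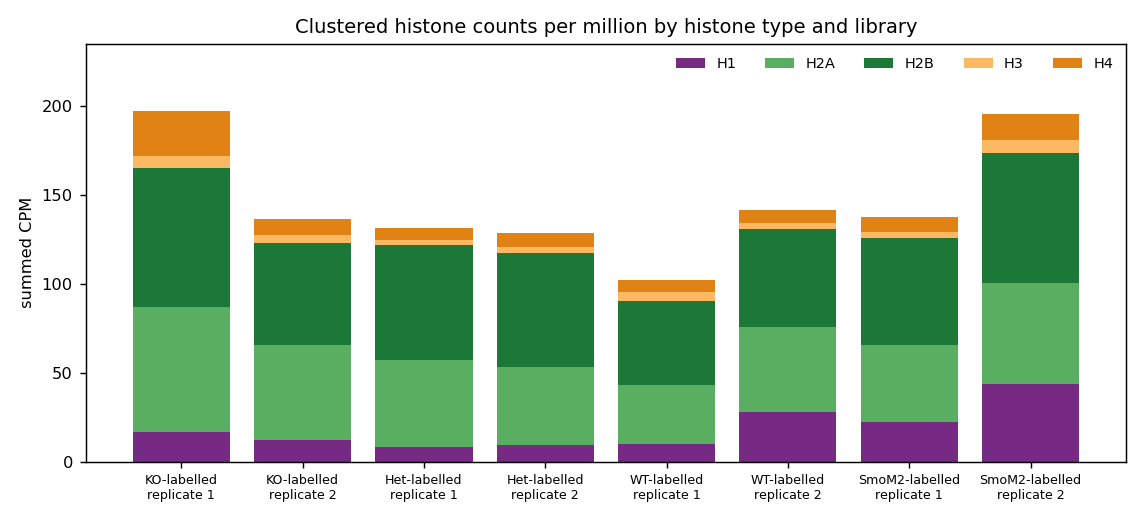
Summed CPM of the members (vertical, stacked by histone type) in each of the 8 libraries. H2A and H2B make up most of each bar; KO replicate 1 and SmoM2 replicate 2 have the tallest bars, at 197 and 196 CPM, the first with the largest H4 part and the second with the largest H1 part.

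The members were also split, a step chosen after the counts were seen, into 7 genes known to make polyadenylated mRNA (Hist1h1c, Hist1h2bc, Hist1h2be, Hist2h2be, Hist2h2aa1, Hist3h2a and Hist3h2ba) and the other 62. The split is not clean. Hist2h2aa2, a near-identical copy of Hist2h2aa1, is among the 62, and so is Hist1h4i, whose annotated transcript ends with a hexamer. The 7 listed genes summed to 118 and 101 CPM in the KO-labelled, 113 and 107 in the Het-labelled, 76.2 and 108 in the WT-labelled and 101 and 151 in the SmoM2-labelled libraries. Their sum was called in none of the 4 comparisons. The other 62 summed to 78.6 and 35.7, 18.3 and 21.6, 26.1 and 34.1, and 37.3 and 45.3 CPM. The Het-labelled libraries were lowest and KO replicate 1 was highest by far. In KO against WT this sum rose by 0.93 ± 0.29 (log2, SE; adjusted p = 0.0388). Without KO replicate 1 it was 0.25 (adjusted p = 0.511), without WT replicate 1 it was 0.72 (adjusted p = 0.160), without either Het-labelled library 0.89 (adjusted p = 0.0545 and 0.0538), and with the length trend removed 0.45 (adjusted p = 0.215). Het against WT gave -0.60 ± 0.30 (adjusted p = 0.168). Without KO replicate 1 or 2, which leaves 1 KO-labelled library, it was -0.59 and passed. It also passed without a filter on low counts (adjusted p = 0.00824) and with only the 2 groups in the fit (0.0467). Without Hist1h2al, which may count a pseudogene, it shrank to -0.36 (adjusted p = 0.414), while KO against WT was 1.08 (adjusted p = 0.0247). In KO against Het the sum of the 62 was higher by 1.52 ± 0.31 (adjusted p = 0.0149). That call was lost without KO replicate 1 (0.84, adjusted p = 0.0815), Het replicate 1 (1.40, adjusted p = 0.123) or Het replicate 2 (1.62, adjusted p = 0.0531).

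Other lists also differed between libraries, some in KO replicate 1 and others by label. Of RNAs that carry no poly(A) tail, 17 of 25 listed were in the table. They had 20 counts in KO replicate 1 (4.43 CPM) and 9 to 23 counts (0.839 to 2.43 CPM) in the other libraries. The 8 erythroid markers summed to 45.8 CPM in KO replicate 1 and 14.2 in KO replicate 2. Their sum was 20.4 to 26.6 in the Het-labelled and at most 7.98 in the WT- and SmoM2-labelled libraries. Hbb-y among them was at 0 throughout. The 8 endothelial markers stood at 27.01 and 19.8 CPM in the KO-labelled and 1.07 to 4.79 elsewhere. Of this list Cldn5 alone gave 22.1 and 16.98 CPM in the KO-labelled libraries, where Pecam1, Cdh5, Kdr and Flt1 stood at 0 to 0.664. The 10 stromal markers summed to 1005 CPM in KO replicate 1 and 352 to 895 elsewhere. Col1a1 led there at 379.5 CPM, while Foxd1 stood at 3.70 to 22.5 CPM in the KO- and Het-labelled and 171 to 385 in the other libraries. The 10 genes of dissociation stress were highest in the Het-labelled libraries, at 7998 and 7967 CPM, against 2870 to 5938 elsewhere. The 8 collecting duct markers were lowest in the Het-labelled libraries, as the 62 other members were, at 2.81 and 4.59 CPM against 13.7 to 41.6 elsewhere. The 8 immune markers had their highest sum in the Het-labelled libraries, at 157 and 178 CPM against 32.6 to 113. Cd74 (109 and 130 CPM) and Cd68 (44.8 and 41.3) made up nearly all of it, Ptprc was at 0 to 0.170 CPM in all libraries, and Csf1r (2.01 and 1.02 CPM) and C1qb (0.267 and 1.36) were not highest in the Het-labelled ones. The part of these in the histone values was not tested. In bulk RNA a smaller share of cells that express a gene and less RNA per cell cannot be told apart.

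**Figure D5:**
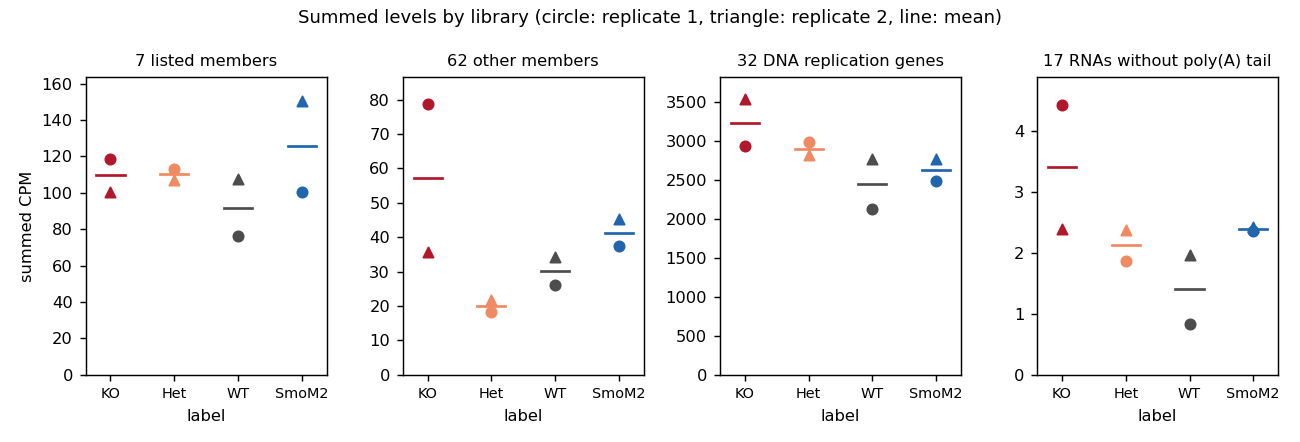
Summed CPM by label for the 7 listed members, the 62 other members, 32 DNA replication genes and 17 RNAs without a poly(A) tail; circles are replicate 1, triangles replicate 2 and lines the group means. Among the 62 other members KO replicate 1 is at 78.6 CPM and the Het-labelled libraries are lowest, at 18.3 and 21.6; DNA replication genes do not show that order.

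Genes of the same pathway were read from lists. Of 32 DNA replication genes, 13 rose and 0 fell in KO against WT, with a median log2 change of 0.51 beside 0.03 over all genes. That is 13 of 32, where 23.0% of all genes were called and 11.6% were higher. They include Tyms, which makes thymidylate (0.93, adjusted p = 0.00418), Pcna, the sliding clamp (0.71, adjusted p = 0.0466), and Mcm6, of the replicative helicase (0.67, adjusted p = 0.00803). In Het against WT 5 rose and 0 fell, beside 25.3% of all genes called, in SmoM2 against WT 0 were called with 1 at an unadjusted p under 0.05, and in KO against Het 2 were higher, Gins1 and Rfc4, beside 9.43% of all genes called. DESeq2 called 0 genes of this and the other 4 pathway lists in SmoM2 against WT. Their sum was 2933 and 3534 CPM in the KO-labelled, 2984 and 2824 in the Het-labelled, 2127 and 2769 in the WT-labelled and 2482 and 2770 in the SmoM2-labelled libraries. KO replicate 1, highest for the 62 other members, was thus lower than KO replicate 2 here. Of 20 mitosis genes, 4 rose in KO and 3 in Het against WT, and none fell, beside 23.0% and 25.3% of all genes called; these counts were 0 without KO replicate 2 and 0 without Het replicate 1. The count of 13 moved to 8 with the length trend removed and to 2 without WT replicate 1, 3 without KO replicate 2, 7 with only the 2 groups in the fit and 8 without any 1 of the Het- or SmoM2-labelled libraries. The count of 5 in Het against WT moved to 0 without Het replicate 1, 1 without WT replicate 1, 2 without Het replicate 2 and 3 without either SmoM2-labelled library, and that of 2 in KO against Het to 0 without any single library of the pair.

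The machinery that makes histone mRNA was a list of 20 genes. In KO against WT 4 rose and 1 fell: Lsm10, of the U7 snRNP (1.05 ± 0.27, SE, adjusted p = 0.0173), Ncbp2, of the cap-binding complex (0.72, adjusted p = 0.00332), and the Sm proteins Snrpb and Snrpd3 were higher, and Zcchc11, a uridylyltransferase, was lower (-0.55, adjusted p = 0.0161). These 5 of 20 are near the 23.0% called over all genes. Lsm10 stood at 12.8 and 15.9 CPM in the KO-labelled, 13.4 and 12.7 in the Het-labelled, 8.2 and 5.6 in the WT-labelled and 8.9 and 6.9 in the SmoM2-labelled libraries, with no overlap between the first 4 and the last 4. In Het against WT Lsm10, Ncbp2 and Sympk rose and Zcchc11 fell, 4 of 20 beside 25.3% of all genes. Slbp, whose product binds the stem-loop, was not called in any of these, at 50.9 to 85.8 CPM. In SmoM2 against WT and in KO against Het 0 genes of this list were called, with 1 and 4 at an unadjusted p under 0.05, and DESeq2 called 2 in KO against Het. The count of 5 in KO against WT moved to 1 with the length trend removed and to 2 without KO replicate 1, KO replicate 2 or WT replicate 1, and that of 4 in Het against WT to 1 without Het replicate 1, Het replicate 2 or WT replicate 2.

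Of 20 histone chaperones, 5 rose and 3 fell in KO against WT, beside 23.0% of all genes called. Nasp, which holds H3 and H4 in reserve, rose by 1.15 ± 0.20 (SE; adjusted p = 0.00266), from 91.6 and 141 to 241 and 275 CPM. Asf1b and Chaf1a, which hand new H3 and H4 to replicated DNA, rose by 0.93 (adjusted p = 0.0200) and 0.57 (adjusted p = 0.0196). Atrx fell by 0.63 and Hjurp, the chaperone of centromeric H3, by 0.99. Against WT, 4 rose in Het (Nasp, Asf1b, Chaf1a and Tonsl) and 3 fell (Atrx, Npm1 and Nap1l1), beside 25.3% of all genes called. Between KO and Het, 3 were higher in KO (Asf1a, Npm1, Nap1l1) and 2 lower (Cabin1, Hjurp), beside 9.43% of all genes, a count of 5 that fell to 0 without KO replicate 1, 1 without any other single library of the pair and 2 with the length trend removed. In KO against WT the count of 8 was 3 without KO replicate 2, and 4 without KO replicate 1, without either WT-labelled library or with the length trend removed. The count of 7 in Het against WT was 3 without Het replicate 1, Het replicate 2 or WT replicate 1.

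Of 11 replacement variants, which are encoded outside the clusters and mostly have polyadenylated mRNAs, 4 rose and 0 fell in KO against WT, all of them H2A variants: H2afz, H2afv, H2afx and H2afj. Over all genes 23.0% were called in that comparison, 25.3% in Het against WT and 9.43% in KO against Het. H2afx, whose phosphorylated form marks broken DNA, stood at 348 and 360 CPM in the KO-labelled, 350 and 350 in the Het-labelled, 164 and 213 in the WT-labelled and 171 and 198 in the SmoM2-labelled libraries, and rose in KO by 0.91 ± 0.14 (SE; adjusted p = 0.00163). It was the only variant that rose in Het against WT (0.89, adjusted p = 0.00150), where H3f3b (-0.92) and H1f0 (-0.54) fell, a count of 3 that fell to 1 without Het replicate 2. H2afz stood at 462 and 562, 316 and 299, 281 and 331, and 271 and 328 CPM, with the KO-labelled libraries above all others. In KO against Het H2afz, H2afv and H2afj were higher, a count that fell to 0 without either Het-labelled library, to 1 without either KO-labelled library and to 1 with the length trend removed. In SmoM2 against WT 0 variants were called by edgeR, and 0 had an unadjusted p under 0.05.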

How the data were processed

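RNA of 8 libraries was deposited as a single table with 24539 gene symbols. Per the file headers, it gives raw read counts per gene, a gene length and the authors' RPKM values, which served for levels between genes. STAR, featureCounts, Subread and mm10 are named in the submitters' processing notes, without versions; the annotation and strand setting are not given in the sources used here. Per the labels' protocols, RNA was poly(A)-selected, fragmented and made into gel-sized libraries. Without strand, reads of overlapping genes cannot be told apart.

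The tests used R 4.3.3 and edgeR 4.0.16 on the counts: filterByExpr (13459 genes), TMM scaling, a mean for each group over 8 libraries with 4 residual degrees of freedom, quasi-likelihood F-tests (two-sided) and Benjamini-Hochberg adjustment over all genes (threshold 0.05). The biological coefficient of variation was 13.5%. CPM are TMM-scaled. Sums by type, of all members and of a split into 7 listed and other members replaced the member rows in the same fit. DESeq2 1.42.0, other scalings and filters, a replicate block, a length trend offset and leaving out libraries were alternatives. The fit was tested on simulated data. A fold against a group with at most 3 counts in each library was taken against a floor of 3 counts and is called a bound. It takes in neither the spread between libraries nor the counting error of the other group. Where any counts were seen, the level may exceed the floor. GENCODE and RefSeq tables gave positions and sequences.

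Genes named by library are the 3 highest of each type, members called in a comparison, the 7 listed and the testis genes, and related genes called or highest. Members and lists were chosen with earlier results of these data known. Columns of values without a sample numbered 0. Some genes of the cell type marker lists are not reported here by name.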

Additional observations from a re-analysis of the deposited data

How the results depend on the processing

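The listed settings were tried on every count and sum. Without a filter on low counts 67 members were tested. Called members numbered 6 in KO against WT, 5 in Het against WT, 1 in SmoM2 against WT and 9 in KO against Het. Of all 18070 genes then tested, 3829, 4093, 356 and 2217 were called in the same order. Over all 4 labels 12 members were called. With at least 10 counts in every library, 6 members were left to test. Called members numbered 1 in Het against WT, 1 in KO against Het and 3 over all 4 labels. Of the 11604 genes then tested, 3280 were called in Het against WT and 1386 in KO against Het. With the trend over gene length removed, 18 members were tested. Called members numbered 0 in KO against WT, 1 in KO against Het and 3 over all 4 labels. Of all 13459 genes, 2079 were called in KO against WT and 622 in KO against Het. With library totals implied by RPKM 5 of 18 were called in KO against Het, beside 1449 of 13459 genes. Leaving out a library gave 0 to 5 in KO against WT, 1 to 3 in Het against WT, 0 to 4 in KO against Het and 2 to 9 over all 4 labels. The sum of all members in KO against WT was 0.43 without the filter and passed (adjusted p = 0.0195); with the length trend removed it was -0.001, and in KO against Het -0.09. In Het against WT it ranged from -0.11 to 0.32 without a library, being -0.11 without WT replicate 1. The length trend also turned the sign of the H2A sum in KO against Het (-0.03), of H2B in KO against WT (-0.05) and KO against Het (-0.38), of H3 in KO against WT (-0.06) and of the 7 listed in KO against WT (-0.19). Library totals implied by RPKM turned the 7 listed in KO against Het (0.07). Leaving out a library gave ranges across 0 for H1 in KO against WT (-0.97 to 0.46), H2A in Het against WT (-0.03 to 0.47), H2B in KO against Het (-0.17 to 0.27), H3 in SmoM2 against WT (-0.48 to 0.71), H4 in Het against WT (-0.07 to 0.20) and the 7 listed in KO against Het (-0.13 to 0.10). The cause was not tested. Replicate numbers did not pair the libraries: deviations of replicate 1 correlated at -0.061 to 0.391 between groups, the highest being WT with SmoM2, where the number follows the sex pattern. With a replicate block 5 of 18 members were called in Het against WT, beside 3685 of 13459 genes. The H2A and H4 sums then passed in KO against WT (0.61, adjusted p = 0.0427, and 1.21, adjusted p = 0.0497). Single calls rest on few counts, since 6 members had at least 10 counts in every library.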

Other observations

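Some members too low for the filter were seen mainly in KO replicate 1; they were picked after their values were seen. Hist1h2ao, an H2A gene, stood at 3.99 CPM there, 0.871 in KO replicate 2 and 0.109 to 0.535 in the other 6 libraries. Hist1h2ap, its near-identical copy, stood at 3.76 CPM in KO replicate 1. Hist1h2ah stood at 2.66 CPM there and at 0 in both Het-labelled libraries and WT replicate 1. None was tested in the filtered fit. In the sum of the 62 members outside the polyadenylated list the SD was 30.3 CPM in the KO-labelled pair, against 2.30, 5.65 and 5.64 CPM in the Het-, WT- and SmoM2-labelled pairs (n = 2 libraries each).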
